A study of Homo sapiens with 12 samples.

Results

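This section describes 9 genes that encode the enzymes of serine synthesis and of one-carbon folate metabolism, PHGDH, PSAT1, PSPH, SHMT1, SHMT2, MTHFD1, MTHFD1L, MTHFD2 and TYMS. They were taken by symbol from a table of 19447 genes, and all 9 were found. The RNA came from K562, a human myeloid leukemia cell line driven by the BCR-ABL1 kinase, and from K562/IM, a derivative selected with stepwise rising imatinib (IM), the drug that inhibits this kinase. K562/IM cells were kept in 5 µM IM. Each line was sequenced without lycorine and after 6 µM lycorine (L), an alkaloid of Amaryllidaceae plants. This gave K562+L and K562/IM+L beside K562 and K562/IM, with 3 libraries each. How long the cells were exposed before RNA was taken is not stated for the sequencing. Whether the 3 libraries of a group were separate cultures is not stated either, so that p-values measure the spread between these libraries, which may be technical. K562/IM is a single selected line, and what sets it apart from K562 cannot be told apart from what the culture in IM does.

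Serine is made from the glycolytic intermediate 3-phosphoglycerate in consecutive steps, by the dehydrogenase PHGDH, the aminotransferase PSAT1 and the phosphatase PSPH. The hydroxymethyltransferases SHMT1, in the cytosol, and SHMT2, in mitochondria, then move a carbon from serine to tetrahydrofolate and leave glycine. MTHFD2 and MTHFD1L carry this carbon to formate inside mitochondria, and MTHFD1 takes formate up again in the cytosol, where it is spent on purines and, by TYMS, on thymidylate for DNA. Transcription of PHGDH, PSAT1 and several of the mitochondrial enzymes is known to respond to ATF4, the transcription factor of the amino acid stress response, and proliferating leukemia cells depend on this supply for nucleotides.

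Total counts ran from 75093844 to 107344598 per library, and counts of the 9 genes from 1475 to 45007. All 10 erythroid and myeloid markers of K562 were detected in every group. Their summed level was 24714 to 33097 CPM (counts scaled to library size) in the labelled K562/IM+L libraries, against 2900 to 7884 CPM in the other 9 libraries. Lymphoid and fibroblast markers were near 0 except in K562/IM, where they summed to 23.8 to 25.6 CPM, mostly CD3D, and to 20.2 to 24.96 CPM, mostly COL1A2. The B cell marker MS4A1 was at 0 in every library. Monocyte markers summed to 76.0 to 174 CPM, mostly LYZ, and epithelial markers to 42.9 to 132 CPM, mostly EPCAM. The part of these markers in the results was not tested. ABCB1, the drug efflux pump P-gp, was at 21.9 to 25.8 CPM in K562/IM, at 1.68 to 1.86 CPM in K562, at 3.83 to 5.14 CPM in K562+L and at 0.490 to 1.06 CPM in the labelled K562/IM+L libraries. The study numbers these last libraries differently in its labels and in its figures, and they are therefore named the labelled K562/IM+L libraries here, and each direction that involves them rests on that label.

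In GRCh38 the genes lay on 9 chromosomes. Of serine synthesis, PHGDH lay at chr1:119648411-119744226 on the plus strand, PSAT1 at chr9:78297143-78330093 on the plus strand and PSPH at chr7:56011051-56051604 on the minus strand. Of the cytosolic and nuclear enzymes, SHMT1 lay at chr17:18327860-18363563 on the minus strand, MTHFD1 at chr14:64388031-64463457 and TYMS at chr18:657604-673578, both on the plus strand. Of the mitochondrial enzymes, SHMT2 lay at chr12:57229327-57234935, MTHFD2 at chr2:74198562-74217565 and MTHFD1L at chr6:150865549-151101887, all on the plus strand. TYMS shared 967 exon bases with ENOSF1 on the opposite strand, and MTHFD2 shared 1324 exon bases with SLC4A5. Shorter opposite-strand overlaps were those of SHMT1 with SMCR8 (196 exon bases), TYMS with TYMSOS (183), MTHFD1 with ZBTB25 (178) and SHMT2 with NDUFA4L2 (33). Further overlaps were with genes not among those counted, the longest being 756 exon bases of MTHFD1 with AL122035.2. Whether the counting used strand is not given in the sources used here, so that reads in these stretches cannot be told apart between the genes.

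Start regions were available from RefSeq (GRCh38.p14) for 7 of the 9 genes, PSPH and SHMT2 being the others. They were searched on both strands for the core of the C/EBP-ATF response element (TGATGNAA), the E-box bound by MYC and its partners (CACGTG) and the core of the E2F site of S phase genes (GGCGGGA). Of 35116 such windows of 300 bases over all genes, 3.62% held the first, 7.26% the second and 15.4% the third. The windows of PHGDH, PSAT1, SHMT1 and MTHFD2 held none of them. Counted from the RefSeq start, the E-box stood at position -15 of MTHFD1, and the E2F core at position 17 of TYMS, read on the minus strand. Of the 4 windows of MTHFD1L, 3 overlapped and held the same response element core and the same E-box. Of the 7 genes, all but PSAT1 had their RefSeq starts inside the gene coordinates given above, and all of these matches lay inside them too. Of the 250 bases before the start, 219 of PHGDH, 249 of MTHFD2 and all of MTHFD1 lay in annotated exons. The windows are therefore not all upstream of the annotated genes. The stretches below show these matches in capitals within 30 bases, as a description and not as a mapped site. No match was tied to a change in level. PSAT1, a member without a match, is shown in lower case for its whole 250 bases before the start, at chr9:78296875-78297124 on the plus strand. It was lower in all 4 pairwise comparisons, and so was MTHFD2, also without a match.
MTHFD1 (chr14:64388327-64388356, plus): cagtccctaagCACGTGggttgggttgtcc
MTHFD1L, E-box (chr6:150866321-150866350, plus): acgcccggctcCACGTGcgcagccggccgc
MTHFD1L, C/EBP-ATF core (chr6:150866346-150866375, plus): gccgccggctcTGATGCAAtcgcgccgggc
TYMS (chr18:657658-657687, plus): gcctgcctccgTCCCGCCgcgccacttggc
PSAT1: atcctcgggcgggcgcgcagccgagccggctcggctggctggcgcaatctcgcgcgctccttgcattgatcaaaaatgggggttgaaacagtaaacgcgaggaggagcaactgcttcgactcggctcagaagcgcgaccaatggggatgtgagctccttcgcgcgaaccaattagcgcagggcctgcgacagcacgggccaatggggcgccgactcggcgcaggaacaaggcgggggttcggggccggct

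To compare genes with each other, CPM were divided by the length of the longest coding transcript in kilobases (kb). On this scale TYMS was the highest of the 9 in every group, with 270 ± 19.6 CPM per kb (SD, n = 3) in K562 and 163 ± 11.4 CPM per kb in the labelled K562/IM+L libraries. SHMT2 came next in K562 with 98.4 ± 11.9 CPM per kb, and its libraries overlapped those of PSAT1 at 81.6 ± 3.53 CPM per kb. MTHFD2 followed at 61.8 ± 2.75, MTHFD1L at 43.1 ± 1.18, PHGDH at 42.4 ± 6.15, MTHFD1 at 36.0 ± 0.253, SHMT1 at 18.2 ± 1.64 and PSPH at 11.7 ± 0.761 CPM per kb, and of these neighbours MTHFD1L and PHGDH overlapped. The place of MTHFD1 depended on the transcript, since its longest one had 6814 bases and its principal one 3136, which gave 78.1 CPM per kb in K562. Among 18915 genes ranked per kb in K562, TYMS was at place 210, PSAT1 at 969, PHGDH at 1921 and PSPH at 5355. In K562+L PHGDH was at place 6642 and PSAT1 at 3349, whereas TYMS was at place 162. The serine synthesis enzymes other than PSPH thus moved far down the ranking, and TYMS kept a place near its top.

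**Figure D1:**
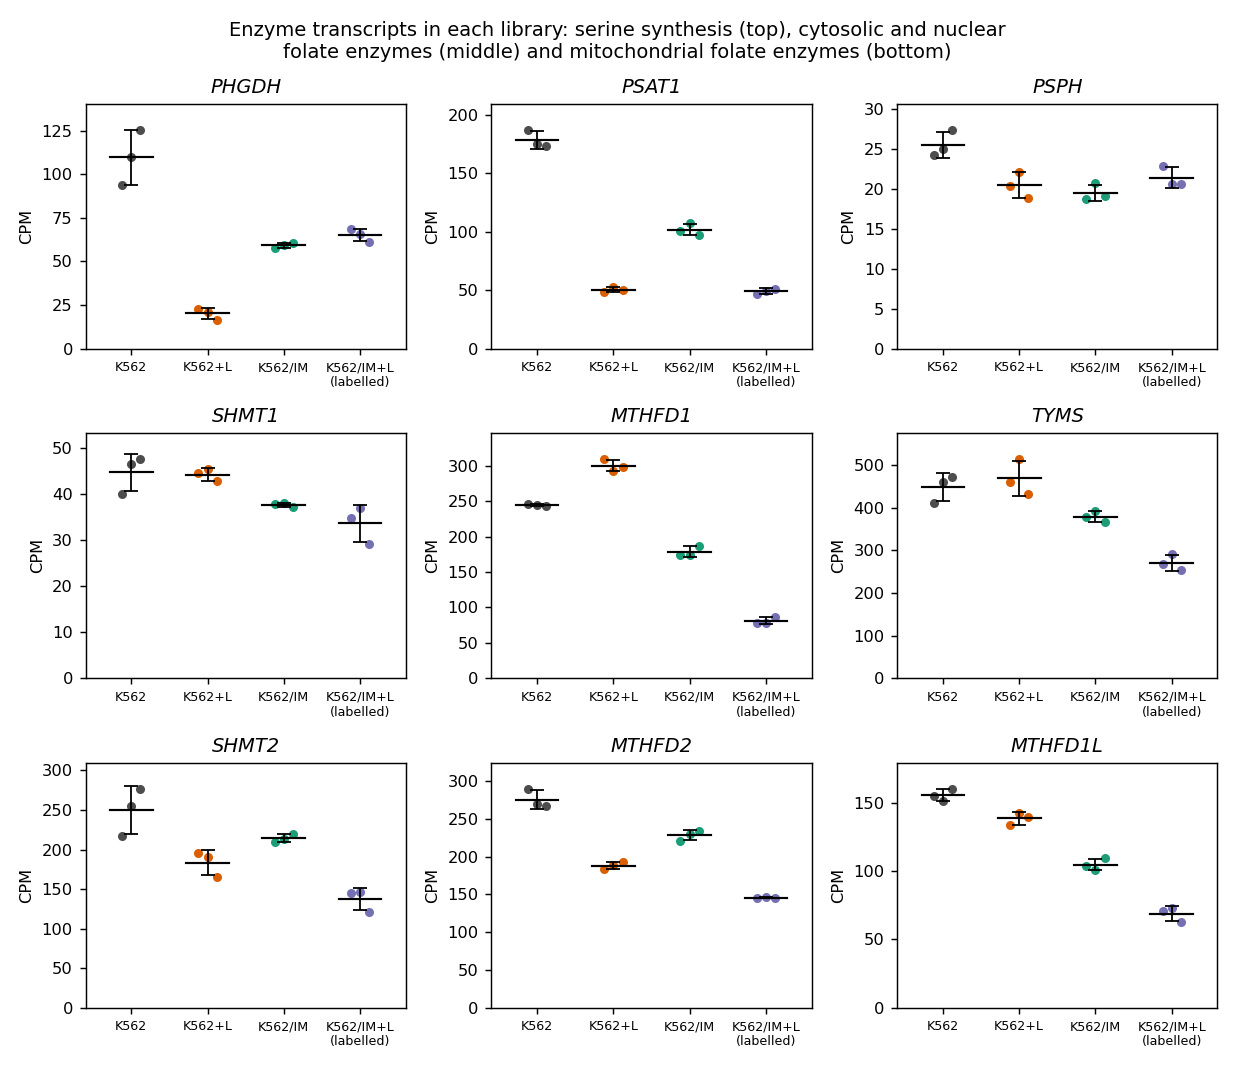
Transcript level in CPM of each of the 9 enzymes in the 12 libraries, on linear axes from 0, with points for libraries, long bars for group means and error bars for the SD of 3 libraries. PHGDH fell from 109.6 to 20.1 CPM and PSAT1 from 179 to 50.3 CPM between K562 and K562+L, whereas MTHFD1 was highest in K562+L and lowest in the labelled K562/IM+L libraries.

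Lycorine in the parental line was examined first, by comparing K562+L with K562. The serine synthesis enzymes fell, PHGDH to 18.4% of its K562 level. The mitochondrial enzymes SHMT2 and MTHFD2 fell by less, and the cytosolic MTHFD1 rose. Of the 9 genes, 5 were lower and 1 was higher at an adjusted p under 0.05, against 19.0% lower and 18.2% higher of the 12927 genes tested. With a log2 fold change over 1 in size required as well, 2 members were lower, PHGDH and PSAT1, against 4.01% of all genes tested. The median log2 fold change was -0.32 over the 9 and close to 0 over all genes.

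PHGDH, the enzyme that commits 3-phosphoglycerate to serine, was at 93.6, 109.9 and 125 CPM in the 3 libraries of K562 and at 22.8, 21.1 and 16.5 CPM in those of K562+L. The groups lay far apart, with no overlap. The log2 fold change was -2.45 with a standard error of 0.16, a 5.45-fold lower level (edgeR adjusted p = 8.79e-05). PSAT1, which transfers the amino group from glutamate in the second step, was at 187, 175 and 173 CPM in K562 and at 48.1, 52.5 and 50.4 CPM in K562+L. It fell by 1.83 ± 0.08 on the log2 scale (standard error, edgeR adjusted p = 3.77e-05), 3.55-fold, again with no overlap. PHGDH and PSAT1 were among the genes that the study drew in its heatmaps of these libraries, so that their change is not independent evidence for the group. PSPH, which removes the phosphate in the last step, was at 24.3, 24.97 and 27.4 CPM in K562 and at 20.3, 22.2 and 18.9 CPM in K562+L. Its log2 fold change was -0.32 (edgeR adjusted p = 0.0381). This call was lost when K562 replicate 2 or 3, or K562+L replicate 1 or 3, was left out, with adjusted p between 0.0981 and 0.137. The log2 fold changes of the 3 steps thus ranged from -2.45 to -0.32.

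Of the mitochondrial enzymes, MTHFD2, the dehydrogenase and cyclohydrolase that is high in many tumours, was at 290, 270 and 267 CPM in K562 and at 183, 189 and 192 CPM in K562+L. It fell by 0.55 on the log2 scale (edgeR adjusted p = 0.00179), with no overlap and in every alternative fit. SHMT2 was at 217, 256 and 277 CPM in K562 and at 195, 190 and 165 CPM in K562+L, where all libraries lay below those of K562. Its log2 fold change of -0.44 had an edgeR adjusted p of 0.0182, and of 0.0694 without K562 replicate 2 and 0.0688 without K562+L replicate 3. MTHFD1L, the formate-producing synthetase, had a log2 fold change of -0.17 (edgeR adjusted p = 0.122), with a 95% confidence interval from -0.34 to 0.01. It did not pass the test, and a change of up to that size remains within its interval. MTHFD2L, a paralogue of MTHFD2 with the same mitochondrial activity, fell by 0.42 on the log2 scale, from 53.1 ± 3.82 to 39.8 ± 0.754 CPM (SD, n = 3, edgeR adjusted p = 0.00869).

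Of the cytosolic enzymes, 1 rose in K562+L and the others did not pass the test. MTHFD1, which joins formate to tetrahydrofolate and reduces it on to methylene-tetrahydrofolate, was at 246, 246 and 243 CPM in K562 and at 309, 293 and 299 CPM in K562+L. All libraries of K562+L were above those of K562, with a log2 fold change of 0.29 (edgeR adjusted p = 0.0148). The call was lost without K562 replicate 2 (adjusted p = 0.0743), K562+L replicate 1 (0.0544) or K562+L replicate 3 (0.0536). SHMT1 was at 40.1, 46.6 and 47.5 CPM in K562 and at 44.5, 45.5 and 42.9 CPM in K562+L, so that the groups overlapped. Its log2 fold change of -0.02 had a 95% confidence interval from -0.23 to 0.20 (edgeR adjusted p = 0.911). TYMS, which makes thymidylate and is a classical S phase gene, was at 411, 460 and 473 CPM in K562 and at 461, 513 and 431 CPM in K562+L. These groups overlapped too, with a log2 fold change of 0.06 and an interval from -0.15 to 0.28 (edgeR adjusted p = 0.628). The directions of SHMT1 and TYMS flipped when single libraries were left out. ENOSF1, which overlaps TYMS on the other strand, fell by 0.86 on the log2 scale in the same libraries (edgeR adjusted p = 0.00138).

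**Figure D2:**
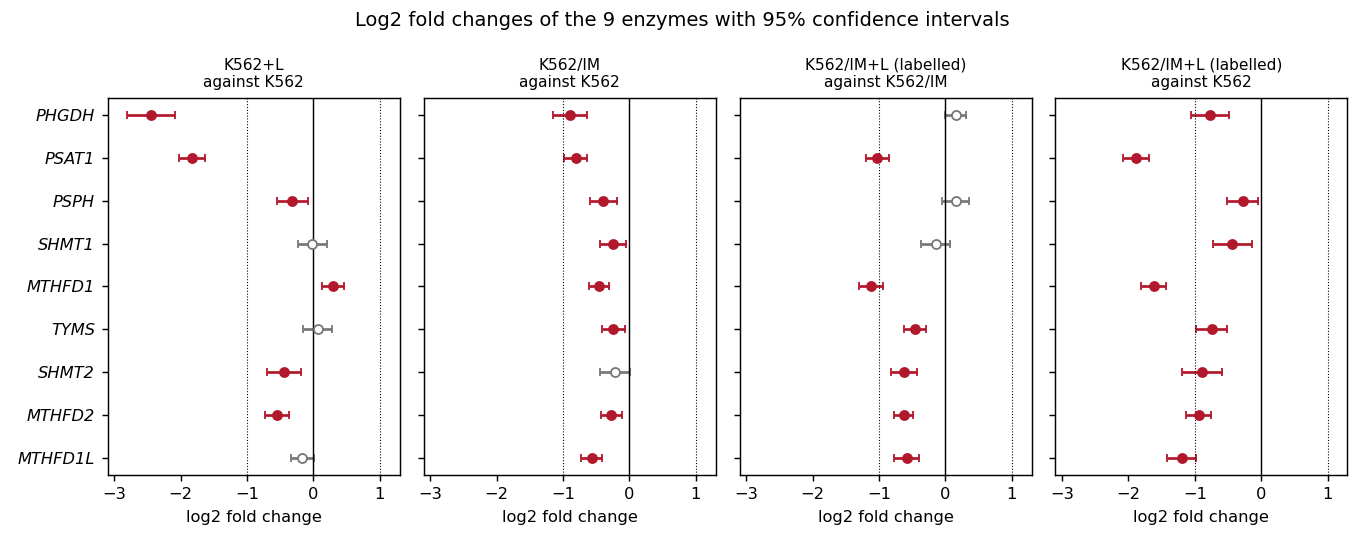
Log2 fold changes of the 9 enzymes in the 4 pairwise comparisons (points) with 95% confidence intervals (bars), filled red where the adjusted p was under 0.05 and open grey elsewhere, with dotted lines at a log2 fold change of -1 and 1. PHGDH is the lowest point in K562+L against K562 at -2.45, and is at 0.16 in the labelled K562/IM+L libraries against K562/IM. The comparisons share control libraries, so that their panels are not independent.

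Genes around the pathway were grouped by function. ATF4 itself was at 456, 475 and 527 CPM in K562 and at 286, 320 and 310 CPM in K562+L, a fall by 0.67 on the log2 scale (edgeR adjusted p = 0.00138). Of the 15 genes of the list of ATF4 and its other target genes, 10 were lower and 3 were higher, and the median log2 fold change was -0.79. The asparagine synthetase ASNS fell from 289 ± 9.65 to 81.6 ± 7.19 CPM (SD, n = 3) and the alanine aminotransferase GPT2 from 40.4 to 15.4 CPM. DDIT4, an inhibitor of mTORC1, fell by 1.59 on the log2 scale, but the stress factor ATF3 rose with a log2 fold change of 1.29. The list therefore did not move as a whole, and PHGDH, PSAT1 and ASNS were among genes that fell.

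In the same comparison 7 of the 15 other folate enzymes and carriers were lower and 4 were higher, against 19.0% and 18.2% of all genes tested. ALDH1L2, which oxidizes formyl-tetrahydrofolate in mitochondria, was at 45.2, 31.7 and 27.7 CPM in K562 and at 11.8, 9.88 and 14.6 CPM in K562+L. It fell by 1.53 on the log2 scale (edgeR adjusted p = 0.00176), with no overlap. SLC25A32, the mitochondrial folate carrier, rose with a log2 fold change of 0.58 (edgeR adjusted p = 0.00518). The folate receptor FOLR1 fell and the histidine-degrading FTCD rose, both at levels of about 1 CPM or less. Of glycine cleavage and serine or glycine use, 4 of 11 genes tested were lower and 1 was higher. Among the lower ones CTH, which makes cysteine from cystathionine, fell from 20.1 to 9.99 CPM, with a log2 fold change of -1.01. The glycine cleavage protein AMT had -1.07 at a low level, 1.87 CPM in K562 and 0.889 CPM in K562+L.

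The genes that spend one-carbon units passed the test in both directions in K562+L. Of all genes tested there, 18.2% were higher and 19.0% were lower. Of the 13 genes of de novo purine synthesis 3 were higher and 2 were lower, and of the 10 genes of dTMP and dNTP supply 2 were higher and 2 were lower. Of the 9 methionine cycle genes tested 0 passed the adjusted test in edgeR, 1 was higher and 1 lower at an unadjusted p under 0.05, and DESeq2 called 1 higher. Of the 14 S phase genes 9 were higher and 0 were lower in edgeR and in DESeq2, and 1 was lower at an unadjusted p under 0.05. Their median log2 fold change was 0.35, against -0.0001 over all genes. MYC, a transcription factor that drives many nucleotide synthesis genes, was at 123, 152 and 149 CPM in K562 and at 239, 247 and 221 CPM in K562+L. It rose with a log2 fold change of 0.74 (edgeR adjusted p = 0.00185), and the groups did not overlap.

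**Figure D3:**
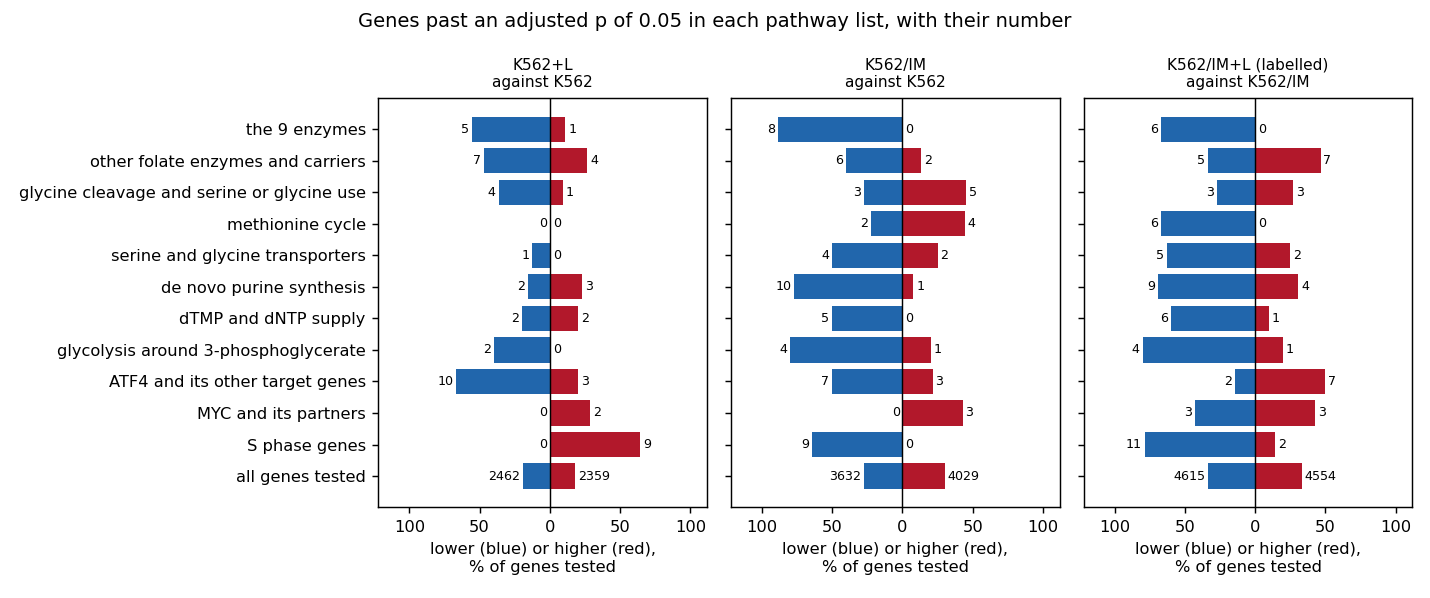
Share of the genes tested in each pathway list that were lower (blue, to the left) or higher (red, to the right) at an adjusted p under 0.05 in 3 comparisons, with the number of genes at the end of each bar and all genes tested in the last row. In K562+L against K562, 10 of 15 genes of the ATF4 list were lower and 9 of 14 S phase genes were higher.

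The resistant line was compared with the parental line without lycorine next. All 9 enzymes had a lower mean in K562/IM than in K562. At an adjusted p under 0.05, 8 were lower and 0 were higher, against 27.1% lower and 30.1% higher of the 13406 genes tested, and SHMT2 did not pass. The count of higher members was also 0 at an unadjusted edgeR p under 0.05 and in DESeq2. In neither tool did any member have a log2 fold change beyond 1 in size, against 19.1% of all genes tested in either direction. The median log2 fold change was -0.39 over the 9 and 0.04 over all genes. Scaling by library totals alone moved the median of all genes by 0.19 on the log2 scale, to 0.23, and PSPH, SHMT1, MTHFD2 and TYMS did not pass the test on that scale.

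PHGDH was at 57.8, 59.2 and 60.5 CPM in K562/IM, below every library of K562, at a log2 fold change of -0.89 ± 0.11 (standard error, edgeR adjusted p = 0.000332). Without K562 replicate 1 it was -1.03, past the fold threshold. PSAT1 was at 100.4, 107.2 and 97.7 CPM in K562/IM, 1.75-fold lower than in K562, with a log2 fold change of -0.81 (edgeR adjusted p = 7.37e-05). PSPH was at 18.7, 20.7 and 19.1 CPM, with a log2 fold change of -0.39 (edgeR adjusted p = 0.00625). The log2 fold changes of the 3 steps were thus -0.89, -0.81 and -0.39, beside -2.45, -1.83 and -0.32 in K562+L. Both comparisons used the same K562 libraries, and their difference was not tested.

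MTHFD1L was at 104, 101 and 109 CPM in K562/IM, and its log2 fold change of -0.57 (edgeR adjusted p = 0.000293) was the lowest among the 6 folate enzymes of the 9 genes. MTHFD1 followed with 174, 174 and 187 CPM and a log2 fold change of -0.46 (edgeR adjusted p = 0.00072). MTHFD2 was at 221, 230.2 and 234 CPM, with a log2 fold change of -0.27 (edgeR adjusted p = 0.00979), and its call was lost without K562/IM replicate 1 (adjusted p = 0.0576). SHMT2 was at 210.1, 213 and 220 CPM and overlapped K562, with a log2 fold change of -0.22 (edgeR adjusted p = 0.0839). That value was -0.34 without K562 replicate 1, the library with the lowest SHMT2 of its group, and then passed (adjusted p = 0.00228). TYMS was at 378, 392 and 366 CPM with a log2 fold change of -0.24 (edgeR adjusted p = 0.0244), and SHMT1 at 37.9, 38.0 and 37.2 CPM with -0.25 (edgeR adjusted p = 0.0382). Neither call was firm. That of TYMS was lost without K562 replicate 2, K562/IM replicate 1 or K562/IM replicate 3, with adjusted p from 0.0856 to 0.0960. That of SHMT1 was lost without any one of the libraries other than K562 replicate 1, with adjusted p from 0.0791 to 0.132.

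Among the surrounding genes, 10 of 13 purine synthesis genes and 9 of 14 S phase genes were lower in K562/IM, with 1 purine gene higher. Over all genes tested in this comparison, 27.1% were lower and 30.1% were higher. The purine gene that rose was ADSS1, the muscle-type adenylosuccinate synthase, with a log2 fold change of 1.21, and of the S phase genes GINS2, part of the replicative helicase, fell by 1.04. GCSH, the carrier protein of glycine cleavage, fell from 203 ± 12.3 to 91.7 ± 7.56 CPM (SD, n = 3), whereas AMT of the same complex rose from 1.87 to 4.55 CPM and the serine dehydratase-like SDSL from 4.13 to 15.6 CPM. ALDH1L1, the cytosolic counterpart of ALDH1L2, had 0 counts in all K562/IM libraries and 4.23 CPM in K562. Against 3 counts over the group, its level was at least 405-fold lower in K562/IM. ALDH1L1 was at 2.58 CPM in K562+L. In the labelled K562/IM+L libraries it was at 1.38 CPM, at least 132-fold above K562/IM by the same floor. The glycine transporter SLC6A9 fell by 1.91 on the log2 scale, and SFXN3, a mitochondrial serine transporter, rose with a log2 fold change of 2.94. Of the ATF4 list 7 of 14 genes tested were lower and 3 were higher, with ASNS at a log2 fold change of -0.87 and ATF4 at -0.26. The methionine cycle had 4 of 9 genes higher and 2 lower, and AHCYL1, a relative of the S-adenosylhomocysteine hydrolase, rose with a log2 fold change of 1.11. MYC did not pass the test (log2 fold change -0.13, edgeR adjusted p = 0.301).

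The labelled K562/IM+L libraries were compared with K562/IM to ask the same of lycorine in the resistant line. Here all 3 mitochondrial enzymes and the cytosolic MTHFD1 and TYMS fell, and of serine synthesis PSAT1 alone passed. At an adjusted p under 0.05, 6 members were lower and 0 were higher, against 33.6% lower and 33.2% higher of the 13727 genes tested. DESeq2 gave the same counts, and 1 member was higher at an unadjusted edgeR p under 0.05. Past the fold threshold as well, 2 were lower, PSAT1 and MTHFD1, against 13.8% of all genes tested. The median log2 fold change was -0.58 over the 9 and -0.0069 over all genes.

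MTHFD1 was at 78.1, 78.3 and 86.8 CPM in the labelled K562/IM+L libraries and at 174, 174 and 187 CPM in K562/IM. No library overlapped, and the log2 fold change was -1.12 ± 0.08 (standard error, edgeR adjusted p = 1.66e-05), 2.17-fold lower. PSAT1 was at 46.4, 49.7 and 51.4 CPM against 100.4, 107.2 and 97.7 CPM, with a log2 fold change of -1.03 (edgeR adjusted p = 1.83e-05). It stood just past the fold threshold, and was at -0.97 with upper-quartile normalization, -0.99 without K562/IM replicate 2 and -0.99 without the labelled replicate 1. PHGDH was at 68.4, 65.7 and 61.1 CPM, all above the 57.8 to 60.5 CPM of K562/IM. Its log2 fold change of 0.16 had a 95% confidence interval from 0.0007 to 0.32 and did not pass the adjusted test (edgeR adjusted p = 0.0707). Its direction flipped, to -0.03, when libraries were scaled by their totals alone, which moved the median of all genes by -0.19. Without the labelled replicate 3 it was 0.20 and passed (adjusted p = 0.00779). PSPH was at 22.9, 20.7 and 20.7 CPM against 18.7 to 20.7 CPM in K562/IM, with a log2 fold change of 0.16 (edgeR adjusted p = 0.143), also turning to -0.03 with library totals. PSAT1 and PHGDH, consecutive steps of the same pathway, therefore stood on different sides of the test.

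The mitochondrial enzymes fell by similar amounts. MTHFD2 was at 146, 146 and 145 CPM in the labelled libraries, with a log2 fold change of -0.63 (edgeR adjusted p = 8.1e-05). SHMT2 was at 145, 146 and 121 CPM, with -0.62 (edgeR adjusted p = 0.000486), and MTHFD1L at 71.0, 72.8 and 62.7 CPM, with -0.58 (edgeR adjusted p = 0.000411). In each case the labelled libraries lay below all K562/IM libraries. TYMS was at 269, 291 and 254 CPM and fell by 0.46 on the log2 scale (edgeR adjusted p = 0.000896), while the overlapping ENOSF1 rose with a log2 fold change of 0.45 (edgeR adjusted p = 0.00481). SHMT1 was at 34.8, 36.9 and 29.2 CPM, with a log2 fold change of -0.14 and an interval from -0.36 to 0.08 (edgeR adjusted p = 0.215).

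The surrounding genes moved widely in these libraries, where 33.6% of all genes tested were lower and 33.2% were higher than in K562/IM. Of the purine genes 9 of 13 were lower and 4 were higher, and PAICS, a bifunctional enzyme of the middle steps, fell from 572 ± 6.75 to 207 ± 2.28 CPM (SD, n = 3), with PFAS falling by 1.80 on the log2 scale. Of the S phase genes 11 of 14 were lower and 2 were higher, among them the replicative helicase subunit MCM3 with a log2 fold change of -1.16. CAD, which starts pyrimidine synthesis, fell by 1.36 on the log2 scale. MYC was at 61.7, 57.3 and 51.5 CPM against 130, 122 and 136 CPM in K562/IM, a fall by 1.16 on the log2 scale (edgeR adjusted p = 2.17e-05), and its antagonists MXD4 and MXD3 rose with log2 fold changes of 2.49 and 1.45. Of the folate enzymes and carriers, SLC25A32 fell by 1.48 on the log2 scale. FTCD and FOLR1 rose to 12.4 and 11.5 CPM. Of the ATF4 list 7 of 14 genes tested were higher and 2 were lower. ATF4 was at 605, 604 and 499.9 CPM against 398 to 409 CPM in K562/IM, and rose with a log2 fold change of 0.52 (edgeR adjusted p = 0.0012). ASNS rose with a log2 fold change of 0.61, DDIT4 with 1.21 and CHAC1 with 1.17, whereas the amino acid transporter SLC7A5 fell by 1.24 and GPT2 by 0.49.

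**Figure D4:**
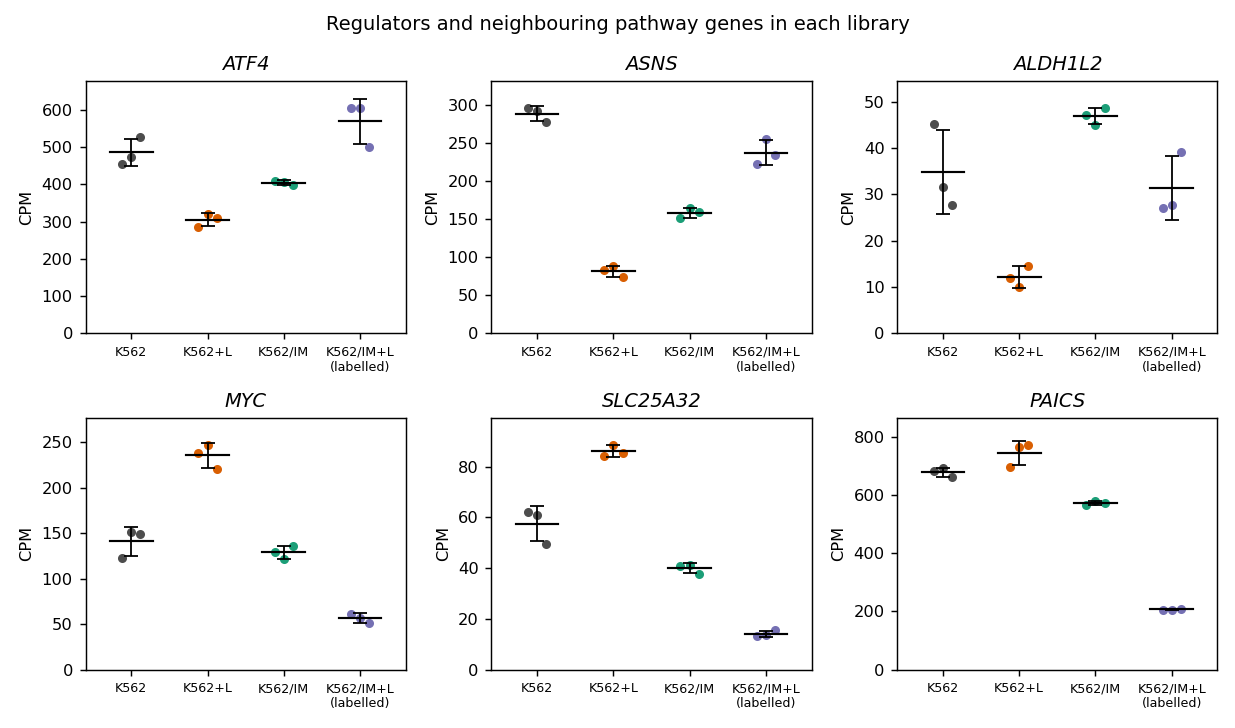
Transcript level in CPM of ATF4, its target ASNS, the mitochondrial folate enzyme ALDH1L2, MYC, the mitochondrial folate carrier SLC25A32 and the purine enzyme PAICS in the 12 libraries, on linear axes from 0, with points for libraries, long bars for means and error bars for the SD of 3 libraries. MYC and SLC25A32 are highest in K562+L and lowest in the labelled K562/IM+L libraries, whereas ATF4 and ASNS are lowest in K562+L.

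Set against K562 in place of K562/IM, the labelled K562/IM+L libraries were lower for all 9 enzymes at an adjusted p under 0.05, against 27.8% lower and 28.2% higher of the 13307 genes tested. Past the fold threshold 3 were lower, against 8.91% of all genes. These were PSAT1 with a log2 fold change of -1.88, MTHFD1 with -1.62 and MTHFD1L with -1.20 (edgeR adjusted p = 9.24e-06, 1.2e-05 and 6.03e-05). MTHFD2 followed with -0.94, SHMT2 with -0.88, PHGDH with -0.77 and TYMS with -0.75. SHMT1 had -0.43 (edgeR adjusted p = 0.0208), which was lost without K562 replicate 2 (0.0715) or 3 (0.0510). PSPH had -0.28 (edgeR adjusted p = 0.0473), which no fit without any one of the 6 libraries kept, with adjusted p from 0.0541 to 0.124. These values use K562 libraries again and do not add to those above. In this comparison 13 of 14 S phase genes and 9 of 13 purine genes were lower, with 0 and 1 higher, and PFAS was the purine gene with the smallest p, at a log2 fold change of -2.22.

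The difference between the lycorine effects, as labelled, was tested by an interaction term fitted to the 12 libraries, in which a positive value means a smaller fall or a larger rise in the resistant line. It passed an adjusted p of 0.05 for 6 of the 9 genes, 3 in each direction, against 61.7% of the 13995 genes tested, 29.9% upward and 31.7% downward, so that the share among the enzymes was close to that among all genes. The 3 positive ones were the enzymes of serine synthesis, and the 3 negative ones were folate enzymes. PHGDH had an interaction of 2.58 ± 0.18 on the log2 scale (standard error, edgeR adjusted p = 2.63e-07), PSAT1 0.78 ± 0.10 (edgeR adjusted p = 3.18e-05) and PSPH 0.45 ± 0.12 (edgeR adjusted p = 0.00741). MTHFD1 had -1.43 ± 0.09 (edgeR adjusted p = 1.38e-07), TYMS -0.54 ± 0.12 (edgeR adjusted p = 0.00172) and MTHFD1L -0.44 ± 0.10 (edgeR adjusted p = 0.00238). For SHMT2, MTHFD2 and SHMT1 the values were -0.20, -0.10 and -0.15, with 95% confidence intervals from -0.52 to 0.12, from -0.28 to 0.08 and from -0.44 to 0.14. PSPH lost the call with library totals (0.27, adjusted p = 0.07), while SHMT1, SHMT2 and MTHFD2 passed on that scale with -0.34, -0.39 and -0.29, where the median of all genes was -0.21. ATF4 and ASNS had interactions of 1.16 and 2.41 (edgeR adjusted p = 7.47e-06 and 1.29e-08), and MYC, SLC25A32 and PAICS -1.93, -2.09 and -1.60 (edgeR adjusted p = 3.48e-07, 1.71e-07 and 2.21e-08).

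Summed per kb, the 3 arms of the pathway took different shares of their K562 level. Serine synthesis was at 136 ± 3.93 CPM per kb in K562 (SD, n = 3), and at 29.6% of this in K562+L, 57.7% in K562/IM and 42.3% in the labelled K562/IM+L libraries. The cytosolic and nuclear enzymes were at 324 ± 21.0 CPM per kb in K562, and at 106%, 83.1% and 58.3% in the same order. The mitochondrial enzymes were at 203 ± 9.96 CPM per kb in K562, and at 75.2%, 81.1% and 52.1%. The ranges of K562 and K562+L overlapped for the cytosolic arm, from 300 to 340 and from 320 to 370 CPM per kb, and for no other arm. With the principal transcript of MTHFD1 the cytosolic shares were 108%, 82.0% and 55.4%. TYMS made up most of the cytosolic sum, so that this arm mainly followed TYMS.

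**Figure D5:**
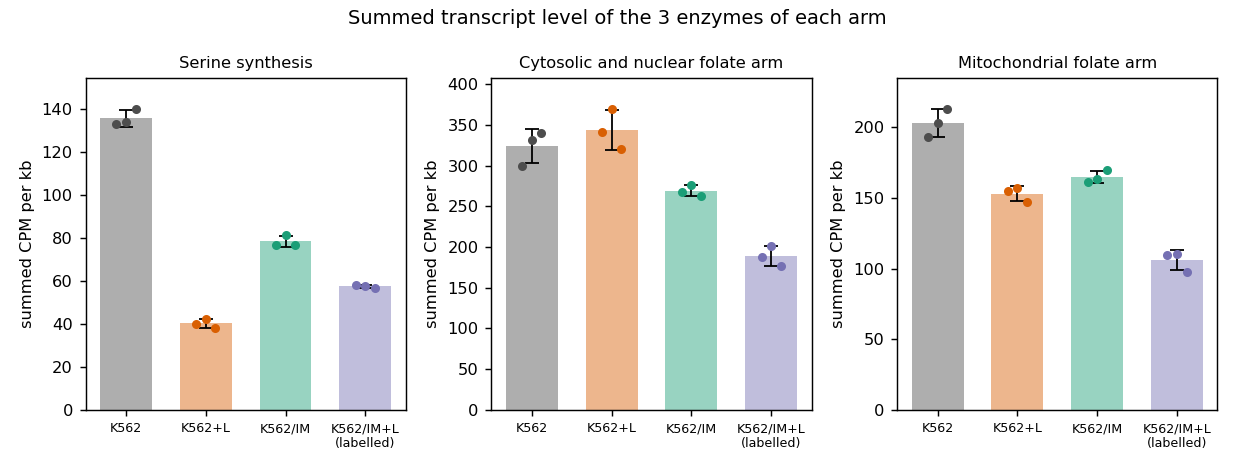
Summed level in CPM per kb of the 3 enzymes of serine synthesis, of the cytosolic and nuclear folate arm and of the mitochondrial folate arm, with bars from 0 for group means, points for libraries and error bars for the SD of 3 libraries. Serine synthesis falls from 136 to 40.2 CPM per kb between K562 and K562+L, while the cytosolic arm is at 324 and 344 CPM per kb.

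Ratios within a library, taken as a description, showed where paired enzymes parted. The log2 ratio of SHMT2 to SHMT1 per kb was 2.43 ± 0.06 in K562 and 2.47 ± 0.05 in K562/IM (SD, n = 3). It was 2.01 ± 0.09 in K562+L and 1.99 ± 0.04 in the labelled K562/IM+L libraries. Both lycorine groups, as labelled, thus lay below both groups without lycorine with no overlap. The log2 ratio of PSAT1 to PHGDH was 0.95 ± 0.27 in K562, 1.57 ± 0.27 in K562+L, 1.02 ± 0.08 in K562/IM and -0.16 ± 0.16 in the labelled libraries. The log2 ratio of MTHFD1L to MTHFD1 was 0.26 ± 0.05, -0.20 ± 0.09, 0.15 ± 0.03 and 0.68 ± 0.20 in the same order, and therefore moved in opposite directions in the lycorine groups of the lines as labelled. The log2 ratio of MTHFD2 to MTHFD2L was 1.46 ± 0.07 in K562 and 0.80 ± 0.09 in the labelled libraries, with 1.32 ± 0.05 and 1.33 ± 0.12 between them.

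Finally, the genes whose level ran most like each enzyme were taken, by the root mean square (RMS) difference of centred log2 CPM over the 12 libraries among 10193 genes. PHGDH was nearest to the mitochondrial carrier SLC25A29 (RMS difference 0.29), ASNS (0.31) and the spliceosome component SNRPF (0.35), and PSAT1 to MS4A4A (0.20), GPT2 (0.26) and BST2 (0.34). These RMS differences were larger than those of the folate enzymes, but the measure also grows with how much a gene varies. The RMS spread of the enzyme itself was 0.90 for PHGDH and 0.78 for PSAT1. Among the folate enzymes it ran from 0.20 for SHMT1 to 0.72 for MTHFD1. Closeness relative to this spread was not compared. MTHFD1 was nearest to the RNA methyltransferase NSUN2 (0.08), TTC27 (0.08) and the methionine salvage enzyme ENOPH1 (0.09), and MTHFD1L to the chaperone HSP90AB1 (0.06), SUPV3L1 (0.06) and DDX55 (0.08). SHMT2 was nearest to RECQL4, FAH and CBFA2T3 (0.08 each), MTHFD2 to MINDY3 (0.10), SLC38A6 (0.10) and PPHLN1 (0.11), and TYMS to MAFK (0.05), RNPS1 (0.06) and ELAVL1 (0.06). PSPH was nearest to XBP1 (0.07), HADHB (0.07) and SNAI1 (0.08), and SHMT1 to PCBP1 (0.06), MTA2 (0.07) and MAPKAP1 (0.07). No member was among the nearest 3 genes of another. Each library pools the RNA of many cells, so that fewer cells that express a gene and less RNA per cell cannot be told apart.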

How the data were processed

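Poly(A) RNA of 12 libraries was sequenced by a company. The authors deposited whole-number counts per gene symbol, without normalization. The submitters' processing notes name FastQC, STAR, StringTie, DESeq2 and hg38, with no versions; the counting step and its use of strand are not given in the sources used here. Low counts lay near multiples of 4 (67.9% of values from 1 to 25 at a multiple or 1 above, against 52% of whole numbers), so counting noise may exceed what the totals give, and exact depth is uncertain.

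Counts were analysed in R 4.3.3. Each pairwise comparison was fitted on its 6 libraries with edgeR 4.0.16 (filterByExpr with a minimum count of 10, TMM, quasi-likelihood test, Benjamini-Hochberg over all genes tested), and the interaction on all 12. Genes passed at an adjusted p under 0.05, and past the fold threshold with an absolute log2 fold change over 1. CPM use TMM over the 12 libraries. Positions and lengths came from GENCODE release 29. Alternatives included DESeq2 1.42.0, other normalizations and filters, and leaving out each library. The script was tested on simulated data. Members, lists and named genes (all members, and per list up to 4 genes of smallest p past both thresholds, ATF4, MYC, ASNS, MTHFD2L, ENOSF1 and ABCB1, with further members of lists given as examples) were chosen with earlier results of these data known. Some genes of the lists are not reported here. Replicate numbers did not pair the libraries. The authors' group numbers for the libraries labelled K562/IM+L differ between sources, and the sample labels were followed.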

Additional observations from a re-analysis of the deposited data

Results flagged for a closer look

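For 6 of the 9 enzymes the lycorine effect differed between the lines as labelled, by the interaction over all 12 libraries in edgeR. The difference was 2.58 on the log2 scale for PHGDH, 0.78 for PSAT1 and 0.45 for PSPH, which all fell in K562+L, whereas in the labelled K562/IM+L libraries against K562/IM PSAT1 fell and PHGDH and PSPH did not pass the test. It was -1.43 for MTHFD1, -0.54 for TYMS and -0.44 for MTHFD1L, which all fell there, whereas in K562+L MTHFD1 rose and TYMS and MTHFD1L did not pass. In this comparison 61.7% of all genes passed, the labelled libraries carried more erythroid marker RNA than any other group, and the part of either in these values was not tested.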

How the results depend on the processing

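The enzymes' log2 fold changes were refitted under 720 combinations of gene, comparison and alternative, of which 655 kept direction and side of the threshold, 49 lost the call, 7 gained it and 9 turned the direction. PHGDH and PSAT1 in K562+L, and MTHFD1, PSAT1 and the mitochondrial enzymes in the labelled K562/IM+L libraries against K562/IM, kept direction and adjusted p under 0.05 in all alternatives run. With the adjusted p alone, 4821, 7661, 9169 and 7446 genes and 6, 8, 6 and 9 members passed in K562+L against K562, K562/IM against K562, the labelled libraries against K562/IM and against K562, where both thresholds gave 826, 2566, 3917 and 3162 genes and 2, 0, 2 and 3 members. Leaving out single libraries gave 0 to 1 member in K562/IM against K562 and 1 to 2 members in the labelled libraries against K562/IM, and upper-quartile normalization gave 1 member in the latter. In K562+L against K562, SHMT1 was at 0.0086 with library totals and between -0.10 and 0.03 without single libraries (0.0080, 0.014 and 0.030 where it turned), and TYMS was between -0.0069 and 0.12 without single libraries, with -0.0054 as the other negative value. With library totals PHGDH was at -0.029 and PSPH at -0.030 in the labelled libraries against K562/IM. With upper-quartile normalization MTHFD2 was at 0.027 in the interaction. For the other changes the cause was not tested. Library totals moved the median of all genes by 0.19 in K562/IM against K562, -0.19 in the labelled libraries against K562/IM and -0.19 in the interaction, and upper-quartile normalization by 0.15 in the labelled libraries against K562 and 0.13 in the interaction. Of the genes past both thresholds, 1636 of 4033 were higher with library totals in the labelled libraries against K562/IM, against 2022 of 3917, and 2355 of 3228 with upper-quartile normalization in the labelled libraries against K562, against 1977 of 3162.

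Libraries with the same replicate number did not deviate together (correlations between -0.29 and 0.15), so the numbers are not taken as pairs. Libraries with different numbers had correlations between -0.23 and 0.28, the highest between K562 replicate 1 and the labelled replicate 3. PHGDH, SHMT1, SHMT2 and TYMS were each lowest of their group in all of K562 replicate 1, K562+L replicate 3 and the labelled replicate 3. PSPH was lowest in K562 replicate 1 and K562+L replicate 3, and MTHFD2 and MTHFD1L in the labelled replicate 3. PSAT1 and MTHFD1 were lowest in none of these libraries. What these libraries shared was not tested. With the replicate number as a block, 735, 2433, 3807, 2913 and 8319 genes and 2, 0, 2, 3 and 6 members passed in the 4 pairwise comparisons and the interaction. At the adjusted p alone the block left out PSPH, SHMT2 and MTHFD1 in K562+L, SHMT1 and TYMS in K562/IM, and PSPH and SHMT1 in the labelled libraries against K562. Merged exon lengths moved 32 of 36 levels per kb by more than 1 SD and also changed the order of the enzymes. In K562 TYMS stayed highest at 181 CPM per kb, with PSAT1 at 81.6, MTHFD2 at 56.6, SHMT2 at 51.6 and PHGDH at 11.9. The principal transcript length was added after the data were seen and moved those of MTHFD1.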

Other observations

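The steps of glycolysis that supply and drain 3-phosphoglycerate were also measured. PGK1, which makes 3-phosphoglycerate, was at 606 CPM in K562, 429 in K562+L, 383 in K562/IM and 235 in the labelled K562/IM+L libraries, and was lower than its control in all 4 pairwise comparisons (log2 fold changes -0.50, -0.66, -0.68 and -1.39, the last against K562). PGAM1, which draws it off, had -0.39, -0.45, -0.92 and -1.42 in the same order. ENO1 did not pass in K562+L (0.02, edgeR adjusted p = 0.904) and fell by 1.26 in the labelled libraries against K562/IM. PKM, the last enzyme, was at 332 CPM in K562, 309 in K562+L, 472 in K562/IM and 51.1 in the labelled libraries, with a rise in K562/IM (log2 fold change 0.51, edgeR adjusted p = 0.00282) and a fall from there in the labelled libraries (-3.18, edgeR adjusted p = 3.07e-07). GAPDH, the step before PGK1, was at 2991 CPM in K562, 2342 in K562+L, 1725 in K562/IM and 2467 in the labelled libraries. It fell in K562/IM (log2 fold change -0.79, edgeR adjusted p = 0.00102) and was the 1 gene of these 5 that rose in the labelled libraries against K562/IM (0.54, edgeR adjusted p = 0.00238).

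Plasma membrane and mitochondrial transporters of serine and glycine were measured too. In K562+L 1 of 8 tested was lower, SLC6A9, with a log2 fold change of -0.83, against 19.0% lower of all genes tested. In the labelled libraries against K562/IM 5 of 8 were lower and 2 were higher, against 33.6% lower and 33.2% higher of all genes tested. SLC6A9 rose from 6.69 to 48.4 CPM and SLC1A4, a carrier of serine and alanine, from 43.2 to 71.1 CPM, whereas the glutamine and serine carriers SLC38A1 and SLC38A2 fell by 1.82 and 1.49. Of the methionine cycle 6 of 9 genes were lower there, with MAT2A, which makes S-adenosylmethionine, falling from 716 to 378 CPM.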
